A study of Mus musculus with 7 samples.

Results

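The aminoacyl-tRNA synthetases are the enzymes that load each tRNA with its amino acid. Their RNA was measured here in ribosome-bound RNA of Purkinje cells, the output neurons of the cerebellar cortex. The members were taken by gene symbol. They are 36 of the 55401 genes in the count tables, of which 20 encode the cytosolic enzymes and 16 encode enzymes of the mitochondrial matrix. The tested animals were 4 nm3888-/- mice, homozygous for a spontaneous mutation at the locus of Rreb1, a zinc finger transcription factor. The reference animals were 3 mice that were wild type at this locus. Mice of both groups were 3 weeks old, carried Rpl22fl/+ and the PCP2-Cre transgene, and gave 1 cerebellum and 1 library each. PCP2-Cre acts in Purkinje cells, where it switches on HA-tagged RPL22, and antibody to HA then pulled down the tagged ribosomes with their RNA.

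A synthetase recognises its amino acid and the tRNAs for it, joins them at the cost of ATP, and so sets the fidelity of the genetic code. Class I and class II enzymes have unrelated catalytic folds. Cytosolic and mitochondrial translation use separate enzymes, nearly all encoded by separate nuclear genes, and in mammals several cytosolic enzymes are held in a multi-synthetase complex by scaffold proteins. The transcription factor ATF4, made when eIF2 alpha is phosphorylated in the integrated stress response, is known to induce many cytosolic synthetase genes. Neurons are known to be sensitive to synthetase defects. Impaired proofreading by AARS in the sticky mouse leads to loss of Purkinje cells, and human GARS and YARS mutations cause peripheral neuropathy.

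The libraries held between 18023017 and 107937386 counts assigned to genes. They fell into 2 library series by the names of their files. The first series held 2 mutants and 2 wild types, all female, and the second held 2 male mutants and 1 female wild type. Sex and series therefore cannot be told apart among the mutants, nor can sex and genotype within the second series. Processed pseudogenes took between 8.19% and 9.51% of counts in the first series and between 0.118% and 0.166% in the second. The fit carried the series as a term. Of 17621 genes tested, edgeR's quasi-likelihood test called 455 higher and 1049 lower in nm3888-/- cells at an adjusted p under 0.05. Rreb1 itself had 18.5 ± 5.46 CPM, counts per 1000000 of scaled library size, in mutants (SD, n = 4) and 16.5 ± 1.81 CPM in wild types (SD, n = 3). With a log2 fold change of 0.20 (edgeR adjusted p = 0.640), its count per gene, which pools all transcripts, did not separate the genotypes. By other methods in cerebellum, the paper reported much lower V7, the predominant Rreb1 transcript there, in nm3888-/- mice. It also found no Rreb1 signal by in situ hybridization in nm3888-/- brain. Why the pooled count differs from these results was not tested.

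The 12 Purkinje cell markers, among them Calb1 and Pcp2, summed to between 38210 and 55479 CPM in mutants and between 40999 and 49501 CPM in wild types, and 0 of 12 were called by edgeR (2 had an unadjusted p under 0.05) or DESeq2. Markers of other cells were lower in sum but not absent, and most had log2 fold changes above 0, with medians larger than the 0.08 of the Purkinje list. The 10 granule cell markers summed to between 605 and 1199 CPM in mutants and between 449 and 542 CPM in wild types, with a median log2 fold change of 0.57. All 10 were above 0, 6 had an unadjusted p under 0.05, edgeR called 1 higher (Calb2) and DESeq2 called 2. The 10 oligodendrocyte markers summed to between 666 and 1192 CPM in mutants and between 492 and 718 CPM in wild types, with a median of 0.53. Of these 9 were above 0, 6 were higher and 1 lower at an unadjusted p under 0.05, edgeR called 1 higher (Cnp) and DESeq2 called 2 higher. The 10 astrocyte and Bergmann glia markers summed to between 420 and 667 CPM in mutants and between 460 and 533 CPM in wild types, with a median of 0.63. Of these 9 were above 0, 3 were higher and 1 lower at an unadjusted p under 0.05, edgeR called Gfap higher and Hopx lower, and DESeq2 called 2 higher and 1 lower. Per kilobase of exon, the highest gene of the astrocyte list held 79.2 of 169 CPM in mutants and 139 of 192 CPM in wild types, so this sum leaned on a single gene. The 8 interneuron markers summed to between 474 and 597 CPM in mutants and between 873 and 1096 CPM in wild types. Their median was 0.29 with 5 above 0, and edgeR called Slc32a1, the vesicular GABA transporter, lower. Per kilobase of exon, the highest gene of this list held 104 of 143 CPM in mutants and 255 of 303 CPM in wild types. The sum thus followed a single gene more than the list, and the cells that gave its RNA were not tested.

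The 8 microglial markers summed to between 6.02 and 12.5 CPM in mutants and between 3.52 and 6.81 CPM in wild types, and Aif1 was at 0 in 1 wild type library. All 6 that were tested were above 0, with a median of 0.68. edgeR called 0 (4 at an unadjusted p under 0.05) and DESeq2 called 1 higher. The 5 blood cell markers summed to between 106 and 313 CPM in mutants and between 87.2 and 112 CPM in wild types, all above 0, with a median of 0.79. edgeR called 0 of them (3 at an unadjusted p under 0.05) and DESeq2 called 2 higher. The 8 endothelial cell and pericyte markers summed to between 44.5 and 61.5 CPM in mutants and between 26.9 and 47.0 CPM in wild types, all above 0, with a median of 0.20. edgeR called 0 of them (2 at an unadjusted p under 0.05) and DESeq2 called 1 higher. The part that these cells took in the synthetase levels below was not tested.

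To compare levels between genes, CPM were divided by the kilobases of exon of each gene. The cytosolic enzymes had a median of 13.5 CPM per kilobase in mutants and 11.1 CPM per kilobase in wild types. The mitochondrial enzymes had a median of 3.38 CPM per kilobase in mutants and 3.19 CPM per kilobase in wild types, close to the median of all genes tested (3.24 and 3.33 CPM per kilobase). The cytosolic gene was thus the more abundant one for most amino acids. Over the 16 mitochondrial genes, each set beside the cytosolic gene for the same amino acid (Eprs for both Ears2 and Pars2, and Farsa for Fars2), the cytosolic level was higher for 15 in both genotypes, with a median ratio of 4.26 in mutants and 3.38 in wild types. Leucine was the exception, since Lars2 had 17.5 CPM per kilobase in mutants and 23.3 in wild types, whereas Lars had 6.27 in mutants and 4.93 in wild types. Tryptophan lay at the other end, with Wars 36.7 times as high as Wars2 in mutants and 37.8 times as high in wild types. All these levels are plain means over libraries, and the second series held a larger share of the mutants than of the wild types. Cytosolic genes were higher in that series, with a median ratio to the first of 1.98 in mutants and 2.10 in wild types. Genotype differences in these means therefore hold the series difference and do not measure the genotype alone.

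**Figure D1:**
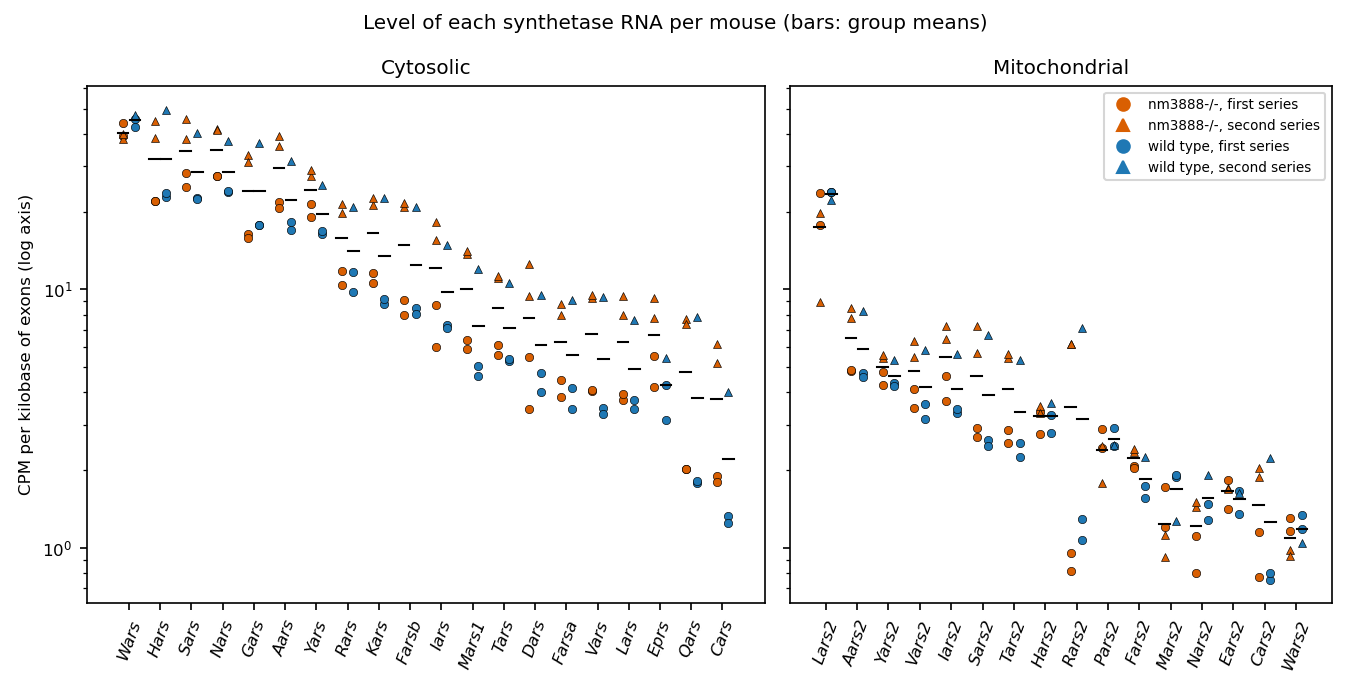
Level of each synthetase RNA in CPM per kilobase of exons (log axis) in each mouse, with mutants left of wild types, circles for the first and triangles for the second library series, and bars at group means. Cytosolic genes (median 13.5 in mutants and 11.1 in wild types) lie above most mitochondrial genes (median 3.38 in mutants and 3.19 in wild types), and Lars2 stands above the other mitochondrial genes. The group means are not balanced over the series.

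Among cytosolic enzymes, Wars, which charges tryptophan, had the highest level in both genotypes with 40.3 ± 2.48 CPM per kilobase in mutants (SD, n = 4) and 45.0 ± 2.55 in wild types (SD, n = 3). Hars, the histidyl enzyme and next in wild types, had 31.8 ± 11.6 in mutants and 31.9 ± 15.3 in wild types. Sars, the seryl enzyme, had 34.2 ± 9.39 in mutants and 28.4 ± 10.3 in wild types. Nars, the asparaginyl enzyme, had 34.5 ± 8.07 in mutants and 28.4 ± 7.73 in wild types. Over both series, the range of each of these genes overlapped that of its neighbour in the order within a genotype. Those ranges hold the series difference and do not measure the spread between mice alone. The group means hold it too and do not measure the genotype difference alone. Hars, for example, had 55.7 and 57.5 CPM in first-series wild types and 121 CPM in the second-series wild type. Differences between genes within a series were not tested. The lowest cytosolic levels in wild types were those of Cars, the cysteinyl enzyme, with 3.76 ± 2.24 CPM per kilobase in mutants and 2.20 ± 1.58 in wild types, of Qars, the glutaminyl enzyme, with 4.78 ± 3.19 in mutants and 3.82 ± 3.50 in wild types, and of Eprs with 6.68 ± 2.25 in mutants and 4.29 ± 1.16 in wild types. Over both series the ranges of these overlapped too, although Qars was above Cars in every library. In mutants Farsa and Lars (6.27 each) were below Eprs. Eprs joins the glutamyl and prolyl activities in 1 long protein.

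Of the mitochondrial enzymes, Lars2 had 17.5 ± 6.20 CPM per kilobase in mutants and 23.3 ± 0.970 in wild types. Aars2, the alanyl enzyme and next in order, had 6.48 ± 1.90 in mutants and 5.86 ± 2.07 in wild types. The lowest Lars2 value among mutants (8.93) was still above the highest Aars2 value among them (8.46). Yars2, the tyrosyl enzyme, had 5.02 ± 0.591 in mutants and 4.64 ± 0.597 in wild types, and overlapped Aars2. At the low end of the wild-type order were Wars2 with 1.10 ± 0.173 in mutants and 1.19 ± 0.148 in wild types, Cars2 with 1.46 ± 0.602 in mutants and 1.26 ± 0.835 in wild types, and Ears2, the glutamyl enzyme, with 1.66 ± 0.177 in mutants and 1.55 ± 0.173 in wild types. The ranges of Cars2 and of these Wars2 and Ears2 values overlapped in each genotype. In mutants Nars2 (1.22) and Mars2 (1.24) were below Cars2.

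The cytosolic synthetases differed little between genotypes. Of 20 genes, 1 (Cars) was called higher, against 2.58% of all genes tested, and 0 were called lower, against 5.95% of all genes tested. At an unadjusted p under 0.05, edgeR gave 6 cytosolic genes higher and 0 lower, against 10.4% of all genes tested that were higher and 13.2% that were lower at this threshold. DESeq2 called 2 higher (Cars and Eprs) and 0 lower at an adjusted p under 0.05, against 4.37% of all genes higher and 6.91% lower. The fitted log2 fold change of nm3888-/- over wild type was above 0 in 17 of 20 genes, with a median of 0.12 and a range of -0.16 to 0.51. The median over all genes tested was 0.03, and 53.4% of them were above 0. In whole pulldowns, fewer cells of a type and less RNA per cell cannot be told apart.

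Cars had 12.5 and 11.9 CPM in the mutants of the first series, against 8.73 and 8.27 CPM in its wild types. It had 34.3 and 40.4 CPM in the mutants of the second series, against 26.5 CPM in the wild type. Each mutant was above each wild type of its own series, while the series differed by more than the genotypes. The log2 fold change was 0.51 ± 0.11 (SE, 95% interval 0.27 to 0.75), with an edgeR adjusted p of 0.0210. With the replicate number as a block the call was lost (edgeR adjusted p = 0.101, log2 fold change 0.47), and over all 15 alternatives the adjusted p (edgeR, or DESeq2 for 1 alternative) ran between 0.00298 and 0.95 and 6 kept the call. The call was lost without wild type replicate 1 (adjusted p = 0.0661), 2 (adjusted p = 0.109) or 3 (adjusted p = 0.130) and without mutant replicate 2 (adjusted p = 0.0624) in edgeR.

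Eprs had the next largest difference. It had 76.3 and 99.8 CPM in the mutants of the first series, against 56.7 and 77.7 CPM in its wild types, so that 1 mutant lay between both wild types. Second-series values were 140 and 167 CPM in mutants, against 98.6 CPM in the wild type. Its log2 fold change was 0.49 ± 0.15 (SE), with an adjusted p of 0.0884 in edgeR, of 0.0369 in DESeq2 and of 0.0310 in edgeR with no filter on low counts.

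Aars, which charges alanine and proofreads against serine and glycine, had 202 and 192 CPM in first-series mutants, against 157 and 169 CPM in the wild types of that series. It had 362 and 334 CPM in second-series mutants, against 290 CPM in the wild type. All mutants were above the wild types of their series, with a log2 fold change of 0.27 ± 0.09 (SE, edgeR adjusted p = 0.0934), short of the threshold. Reads in the 1326 bases, 14.3% of its exon length, that Aars shares with Exosc6 on the same strand could not be assigned to 1 gene alone. Mars1, the methionyl enzyme, had 21.8 and 20.1 CPM in first-series mutants, against 17.3 and 15.8 CPM in wild types. Mars1 had 47.1 and 48.0 CPM in second-series mutants, against 41.1 CPM in the wild type. Here too the genotypes did not overlap within a series, and the log2 fold change of 0.28 ± 0.09 (SE) did not pass (edgeR adjusted p = 0.107).

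The other 16 cytosolic genes spread around these at smaller sizes. Yars (0.23), Nars (0.18) and Tars (0.11), which charge tyrosine, asparagine and threonine, had all mutants above all wild types within both series, on the log2 scale of the fit and without passing edgeR's threshold (adjusted p = 0.165 for Yars, 0.210 for Nars and 0.501 for Tars). Gars (-0.16) and Hars (-0.15), the glycyl and histidyl enzymes, had all mutants below all wild types within both series, also without passing (edgeR adjusted p = 0.284 for Gars and 0.397 for Hars). Wars had a log2 fold change of -0.16 (edgeR adjusted p = 0.341). The 10 that remain, Sars, Kars, Vars, Lars, Dars, Iars, Qars, Farsb, Farsa and Rars, had log2 fold changes between 0.02 and 0.16 and overlapped between genotypes in at least 1 series. Farsa and Farsb, which encode the 2 subunits of the phenylalanyl enzyme, had 0.02 and 0.03.

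Grouped by assembly, the cytosolic enzymes had medians close to each other. The 8 members of the multi-synthetase complex (Dars, Eprs, Iars, Kars, Lars, Mars1, Qars and Rars) had log2 fold changes with a median of 0.12, all above 0 and 0 called. In edgeR 2 were higher at an unadjusted p under 0.05, against 10.4% of all genes tested. DESeq2 called 1 higher (Eprs), against 4.37% of all genes. The 12 free enzymes had a median of 0.13, with 9 above 0 and 1 called higher by edgeR. Of all genes tested, 53.4% were above 0 and 2.58% were called higher. Class I enzymes of the cytosol had a median of 0.14 (9 genes) and class II enzymes 0.11 (10 genes), with Eprs, which holds an enzyme of each class, left out. The scaffold proteins of the complex had log2 fold changes of 0.21 (Aimp1), 0.11 (Aimp2) and 0.05 (Eef1e1), and 0 of 3 were called by edgeR (0 at an unadjusted p under 0.05) or DESeq2.

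**Figure D2:**
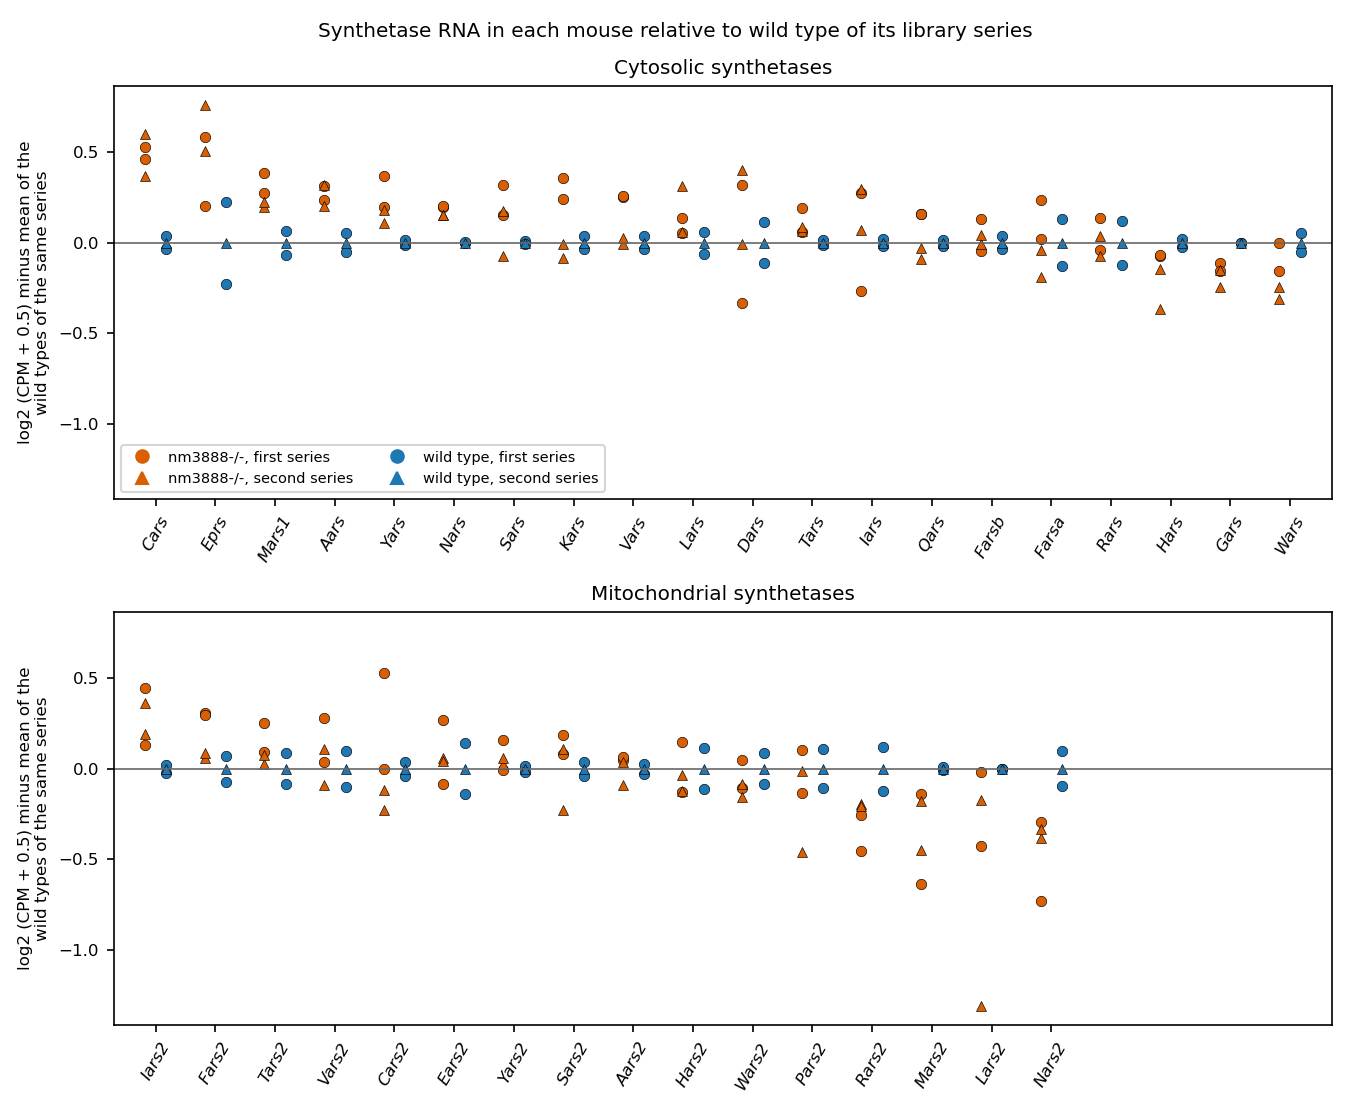
log2 of CPM + 0.5 in each mouse minus the mean of the wild types of its library series, for 20 cytosolic and 16 mitochondrial genes ordered by fitted fold change, mutants left of wild types. Each Cars value of a mutant lies above 0, the second-series wild type is at 0 by construction, and Lars2 has 1 mutant far below the others.

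Promoter sequence is shown for the cytosolic genes that hold the letters TGATGNAA, the core of the element at which ATF4 and C/EBP proteins are known to bind in stress-induced genes. RefSeq promoters (250 bases before to 50 after the start site, build GRCm38.p6) were matched for 27 of 36 members. Searched on both strands, the letters occurred in 5 of 13 cytosolic promoters (38.5%), in 0 of 14 mitochondrial promoters and in 1304 of 32851 promoter windows of the same length in the table (3.97%). Capitals mark the match, which reads TTNCATCA where it lies on the strand opposite to the gene, and each line runs in the direction of the gene.
Aars, chr8:111033700-111033767, plus strand: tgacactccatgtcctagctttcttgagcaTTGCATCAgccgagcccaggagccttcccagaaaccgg
Aars, chr8:111033821-111033888, plus strand: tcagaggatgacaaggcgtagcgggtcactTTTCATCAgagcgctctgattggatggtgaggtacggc
Gars, chr6:55037941-55038008, plus strand: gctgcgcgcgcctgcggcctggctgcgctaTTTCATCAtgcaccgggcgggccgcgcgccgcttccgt
Iars, chr13:49682107-49682174, plus strand: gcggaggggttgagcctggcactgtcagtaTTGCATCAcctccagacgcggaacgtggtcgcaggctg
Tars, chr15:11399636-11399703, minus strand: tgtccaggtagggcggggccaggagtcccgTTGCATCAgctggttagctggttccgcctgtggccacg
Yars, chr4:129189876-129189943, plus strand: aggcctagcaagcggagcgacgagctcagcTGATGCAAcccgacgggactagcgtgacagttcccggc

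The match was spelled TTGCATCA in Aars, Iars and Tars, TTTCATCA in Aars and Gars, and TGATGCAA, the reverse complement of the first, in Yars. A match is a description, not a site or a cause. The 5 genes with the letters had log2 fold changes of median 0.11, with 0.27 for Aars, 0.23 for Yars, 0.11 for Tars, 0.10 for Iars and -0.16 for Gars. Both edgeR and DESeq2 called 0 of them, and in edgeR 2 were higher at an unadjusted p under 0.05, against 10.4% of all genes tested. The 8 matched cytosolic genes without the letters had a median of 0.13. Among these 13 matched genes, the median was thus not higher in those with the letters. No promoter was matched for Cars, Hars, Lars, Nars, Rars, Vars and Wars. Cars, the member that edgeR called, was therefore not searched.

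The mitochondrial synthetases were spread on both sides of 0. edgeR called 0 of 16, with 1 higher and 2 lower at an unadjusted p under 0.05 (10.4% and 13.2% of all genes tested), and DESeq2 called 0. The log2 fold change was above 0 in 9 of 16 genes, with a median of 0.04 and a range of -0.46 to 0.29. Class I genes had a median of 0.06 and class II genes 0.02.

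Nars2, the mitochondrial asparaginyl enzyme, had 5.61 and 7.78 CPM in first-series mutants, against 10.4 and 8.98 CPM in wild types. In the second series it had 10.1 and 10.5 CPM in mutants, against 13.3 CPM in the wild type. Every mutant was below the wild types of its series, and the log2 fold change of -0.46 ± 0.15 (SE, edgeR adjusted p = 0.0946) did not pass. Mars2, the methionyl enzyme and a gene of 1 exon, had 13.6 and 19.4 CPM in first-series mutants, against 21.3 and 21.6 CPM in wild types. Mars2 had 12.7 and 10.4 CPM in second-series mutants, against 14.4 CPM in the wild type. Its mutants were likewise below the wild types in both series, with a log2 fold change of -0.35 ± 0.14 (SE, edgeR adjusted p = 0.182).

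Iars2, the isoleucyl enzyme, lay on the other side. It had 33.0 and 41.2 CPM in first-series mutants, against 29.6 and 30.5 CPM in wild types, and 64.4 and 57.0 CPM in second-series mutants, against 49.9 CPM in the wild type. All mutants exceeded the wild types of their series, but the log2 fold change of 0.29 ± 0.11 (SE) did not pass (edgeR adjusted p = 0.137). Rab3gap2 overlaps 22.9% of the exon length of Iars2 on the opposite strand, and counting kept the strands apart.

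Lars2 had the largest spread of all members. It had 197 and 262 CPM in first-series mutants, against 265 and 265 CPM in wild types, and 99.1 and 219 CPM in second-series mutants, against 246 CPM in the wild type. A single mutant of the second series was thus far below the rest, while another mutant almost reached the wild types. The log2 fold change was -0.38 ± 0.24 (SE, 95% interval -0.94 to 0.17), with an edgeR adjusted p of 0.390. Without that mutant the log2 fold change was -0.19 (edgeR adjusted p = 0.359).

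The other 12 mitochondrial genes had log2 fold changes between -0.31 (Rars2) and 0.21 (Fars2), and none was called by edgeR or DESeq2. Rars2, the arginyl enzyme, had all mutants below all wild types within both series (edgeR adjusted p = 0.215), at 2.25 and 2.65 CPM in first-series mutants and 3.60 and 2.97 CPM in the wild types of that series. Tars2 (0.12) and Fars2, the threonyl and phenylalanyl enzymes, had all mutants above all wild types within both series (edgeR adjusted p = 0.509 for Tars2 and 0.299 for Fars2). Fars2 is on chromosome 13, where Rreb1 starts 1.05 Mb beyond its end, so that it lies near the locus for which mutants were chosen as homozygous, and variants linked to that locus were not tested. Among the rest were Vars2 (0.10), Cars2 (0.08), Ears2 (0.08), Yars2 (0.06), Sars2 (0.06), Aars2 (0.02), Hars2 (-0.02), Wars2 (-0.07) and Pars2 (-0.11).

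**Figure D3:**
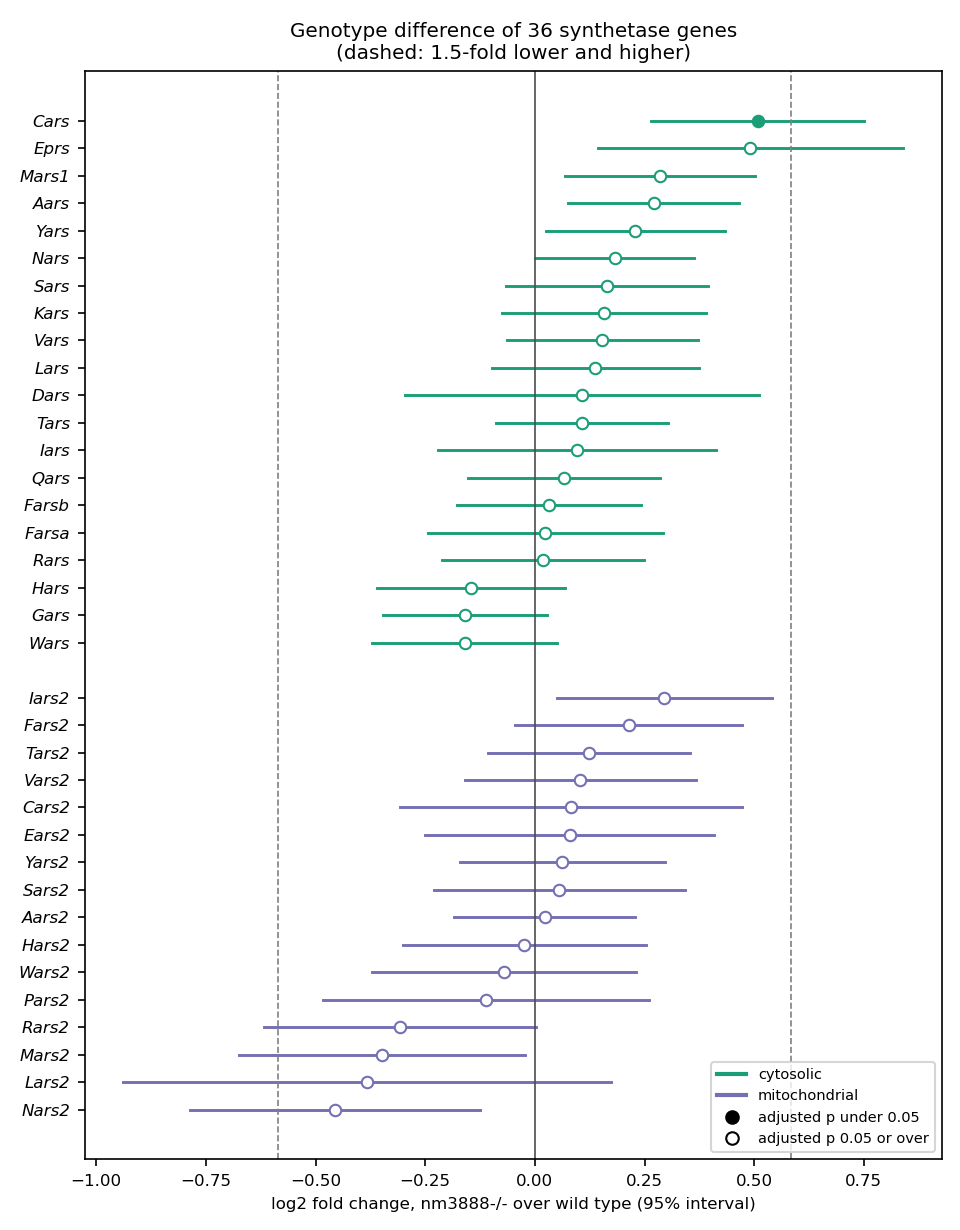
Fitted log2 fold change of nm3888-/- over wild type with its 95% interval for each of 36 genes (4 mutants and 3 wild types), with dashed lines at a 1.5-fold difference in either direction. The intervals of 30 genes lie within the dashed lines, and only Cars (filled) passed an adjusted p of 0.05.

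The intervals bounded how far most members could differ. The 95% interval lay within 1.5-fold in either direction for 18 of 20 cytosolic and 12 of 16 mitochondrial genes, or 83.3% of members, against 43.1% of all genes tested. The exceptions were Cars, Eprs, Lars2, Mars2, Nars2 and Rars2. All 36 intervals lay within 2-fold. The median SE was 0.10 for cytosolic genes, 0.13 for mitochondrial genes and 0.17 for all genes tested, on the log2 scale, and the lowest count of a member in any library was 209 among cytosolic and 43 among mitochondrial genes.

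Counted by whether genotypes overlapped, 9 of 36 members had every mutant above every wild type within both series, against 14% of all genes tested. They were 6 cytosolic genes (Aars, Cars, Mars1, Nars, Tars and Yars) and 3 mitochondrial genes (Fars2, Iars2 and Tars2). In the other direction, 6 of 36 members had every mutant below every wild type, against 16.6% of all genes tested. They were Gars and Hars of the cytosol and Lars2, Mars2, Nars2 and Rars2 of the mitochondria. In the second series, these counts set male mutants against a female wild type, so sex and genotype cannot be told apart there.

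The cytosolic set lay slightly above the mitochondrial set in each mutant. Relative to the wild types of the same series, the median log2 value over cytosolic genes was 0.19 and 0.18 in first-series mutants and 0.05 and 0.05 in second-series mutants. Over mitochondrial genes it was 0.07 and 0.02 in first-series mutants and -0.09 and 0.01 in second-series mutants. The difference of the medians, cytosolic minus mitochondrial, was 0.12, 0.15, 0.14 and 0.04 in the 4 mutants and 0.08 in the fit. Mutants of a series share their wild types, so these values are not independent. For the same amino acid, the cytosolic gene had the higher log2 fold change in 11 of 16 pairs, with the largest gaps for asparagine (0.18 for Nars and -0.46 for Nars2) and methionine (0.28 for Mars1 and -0.35 for Mars2). No test was made of the difference between the sets.

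The summed levels moved more with the series than with the genotype. The 20 cytosolic genes together had 254 and 247 CPM per kilobase in first-series mutants, against 229 and 236 in wild types. In the second series they had 422 and 431 CPM per kilobase in mutants, against 423 in the wild type. The 16 mitochondrial genes had 55.0 and 61.9 CPM per kilobase in first-series mutants, against 60.8 and 59.1 in wild types, and 67.0 and 80.8 in second-series mutants, against 82.9 in the wild type. The mutants were thus above the wild types in the cytosolic sum of the first series. They were below the wild type in the mitochondrial sum of the second, and the genotypes overlapped in the other sums. Lars2 alone held 17.5 of a mean mitochondrial sum of 66.2 CPM per kilobase in mutants and 23.3 of 67.6 in wild types. In the second series Lars2 had 99.1 and 219 CPM in mutants, against 246 CPM in the wild type. The mitochondrial sum there leaned on this gene and does not describe the set.

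Fitted within each series, the cytosolic median log2 fold change was 0.15 in the first and 0.07 in the second, and the mitochondrial median was 0.07 in the first and -0.06 in the second. The sign was the same in both for 16 of 20 cytosolic and 12 of 16 mitochondrial genes, against 59.1% of all genes tested. In the test of a genotype difference between the series, 0 of 36 members passed in edgeR and 0 had an unadjusted p under 0.05. Across all genes 14 passed and 1017 had an unadjusted p under 0.05. The smallest p among members was that of Kars, the lysyl enzyme (unadjusted p = 0.0965, edgeR adjusted p = 0.923), with log2 fold changes of 0.30 in the first and -0.04 in the second series.

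The series difference itself was large for these genes. CPM in the second series over CPM in the first had a median of 1.98 in mutants and 2.10 in wild types over cytosolic genes, and of 1.37 in each genotype over mitochondrial genes, whereas over all genes tested it was 1.02 in mutants and 0.99 in wild types. Rars2, with 20 exons in 2771 bases, had a ratio of 6.95 in mutants and 5.99 in wild types, and Qars had 3.73 in mutants and 4.36 in wild types. Mars2, with 1 exon, had 0.70 in mutants and 0.67 in wild types. Over the 36 genes, the ratio went with the number of exons per kilobase (Pearson's r = 0.64 in mutants and 0.61 in wild types, Spearman's rho = 0.64 in mutants and 0.60 in wild types), a description across genes of the same libraries. The folder names in the table headers name Bowtie2 for the first series and STAR, which aligns across introns, for the second, so aligner, sequencing run and series cannot be told apart.

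**Figure D4:**
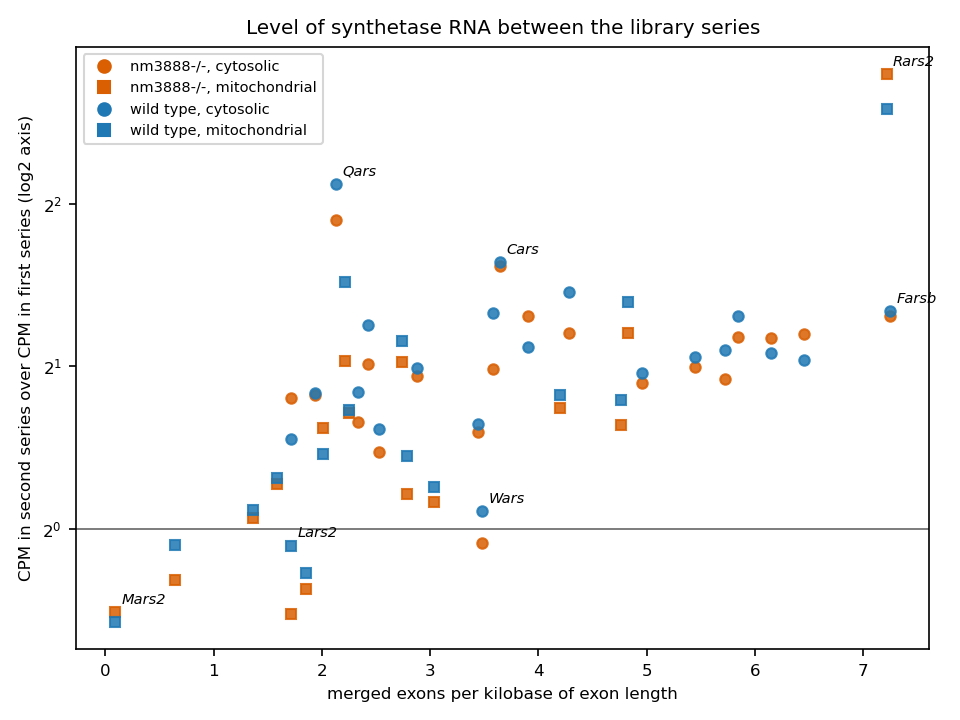
CPM in the second library series over CPM in the first (log2 axis) against merged exons per kilobase, for each synthetase gene in mutants (orange) and wild types (blue), circles for cytosolic and squares for mitochondrial genes. Both genotypes follow the same course, with Rars2 highest (6.95 in mutants and 5.99 in wild types) and single-exon Mars2 near the bottom.

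Genes that work beside the synthetases gave few calls, and DESeq2 called 0 of the first 7 named here. Of 3 other synthetase genes, edgeR called 0 (1 lower at an unadjusted p under 0.05), with log2 fold changes of -0.12 for Tarsl2, a threonyl enzyme, and of -0.05 for Sepsecs and -0.24 for Pstk, which make selenocysteinyl-tRNA. Of 4 mitochondrial genes that form glutaminyl-tRNA or formyl-methionyl-tRNA, edgeR called 0 (1 higher and 1 lower at an unadjusted p under 0.05), with 0.27 for Gatb, 0.04 for Qrsl1, 0.02 for Gatc and -0.33 for Mtfmt. Of 5 genes in a list drawn up for factors that clear mischarged or D-aminoacyl-tRNA, 1 was called higher, against 2.58% of all genes tested.

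That gene was Prorsd1, a homologue of the bacterial factor that removes alanine from tRNA for proline. It had 1.73 and 1.91 CPM in first-series mutants, against 0.316 and 0.633 CPM in wild types. In the second series it had 1.94 and 2.28 CPM in mutants, against 0.4 CPM in the wild type. All mutants were above all wild types at a low level, and the log2 fold change was 2.16 ± 0.28 (SE, edgeR adjusted p = 0.00220). The others did not pass, with 0.31 for Aarsd1, 0.17 for Dtd1, 0.06 for Dtwd1 and -0.08 for Dtd2 on the log2 scale. Dtwd1 was in the list but is not known to clear mischarged or D-aminoacyl-tRNA.

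Of 9 cytosolic elongation factors, edgeR called 1 lower and 0 higher, against 5.95% lower and 2.58% higher of all genes tested. At an unadjusted p under 0.05, edgeR gave 3 lower and 2 higher, against 13.2% and 10.4% of all genes tested. DESeq2 called 1 lower and 2 higher, against 6.91% and 4.37% of all genes. Eif5a2, a form of the factor that relieves stalled ribosomes, had 40.5, 48.7, 37.9 and 32.6 CPM in mutants, against 106, 95.8 and 70.6 CPM in wild types. The groups did not overlap, with a log2 fold change of -1.11 ± 0.11 (SE, edgeR adjusted p = 0.000548). Eef1a1 and Eef1a2, which bring charged tRNA to the ribosome, had log2 fold changes of 0.34 (edgeR adjusted p = 0.0763) and -0.21 (edgeR adjusted p = 0.163).

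The kinases of the integrated stress response and the targets of ATF4 included 6 genes called higher of 24 tested, against 2.58% of all genes tested, and 0 called lower in edgeR (1 at an unadjusted p under 0.05) or DESeq2. Atf5, a transcription factor of this response, had 77.1, 51.6, 41.5 and 62.5 CPM in mutants, against 25.8, 26.9 and 30.9 CPM in wild types, with a log2 fold change of 1.06 ± 0.20 (SE, edgeR adjusted p = 0.0134). Shmt2, of mitochondrial serine metabolism, had 19.9, 19.8, 27.9 and 31.0 CPM in mutants, against 10.9, 11.8 and 18.6 CPM in wild types, with 0.74 ± 0.10 (SE, edgeR adjusted p = 0.00310). In both genes each mutant was above all wild types. Atf3 (2.43) and Psph (0.65), the second for the last step of serine synthesis, were also called higher (edgeR adjusted p = 0.00983 for Atf3 and 0.0370 for Psph), as were 2 further genes, and the list had a median log2 fold change of 0.20. The count of 6 was 0 with no series term and 0 with sex in place of series, 3 in each series alone (Shmt2 had an edgeR adjusted p of 0.119 in the second), 2 with the replicate block (edgeR adjusted p = 0.0501 for Atf5 and 0.129 for Psph) and 2 without wild type replicate 1, 2 or 3, and it was 3 without mutant replicate 1 or 2 and 5 without mutant replicate 4. Without 1 library, Atf5 lost its call for wild type replicates 1 (edgeR adjusted p = 0.0557) and 2 (0.0584), Atf3 for wild type replicate 3 (0.0625), and Psph for each library but mutant replicate 3 (between 0.0759 and 0.116).

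Atf4 RNA had 217, 164, 142 and 178 CPM in mutants, against 135, 135 and 132 CPM in wild types, a log2 fold change of 0.40 ± 0.13 (SE, edgeR adjusted p = 0.0975). Every mutant was above every wild type, without passing the threshold. Asns, the asparagine synthetase that ATF4 induces, had -0.05 (edgeR adjusted p = 0.753), Ddit3 had -0.09 (0.806) and Chac1 had -0.36 (0.390).

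**Figure D5:**
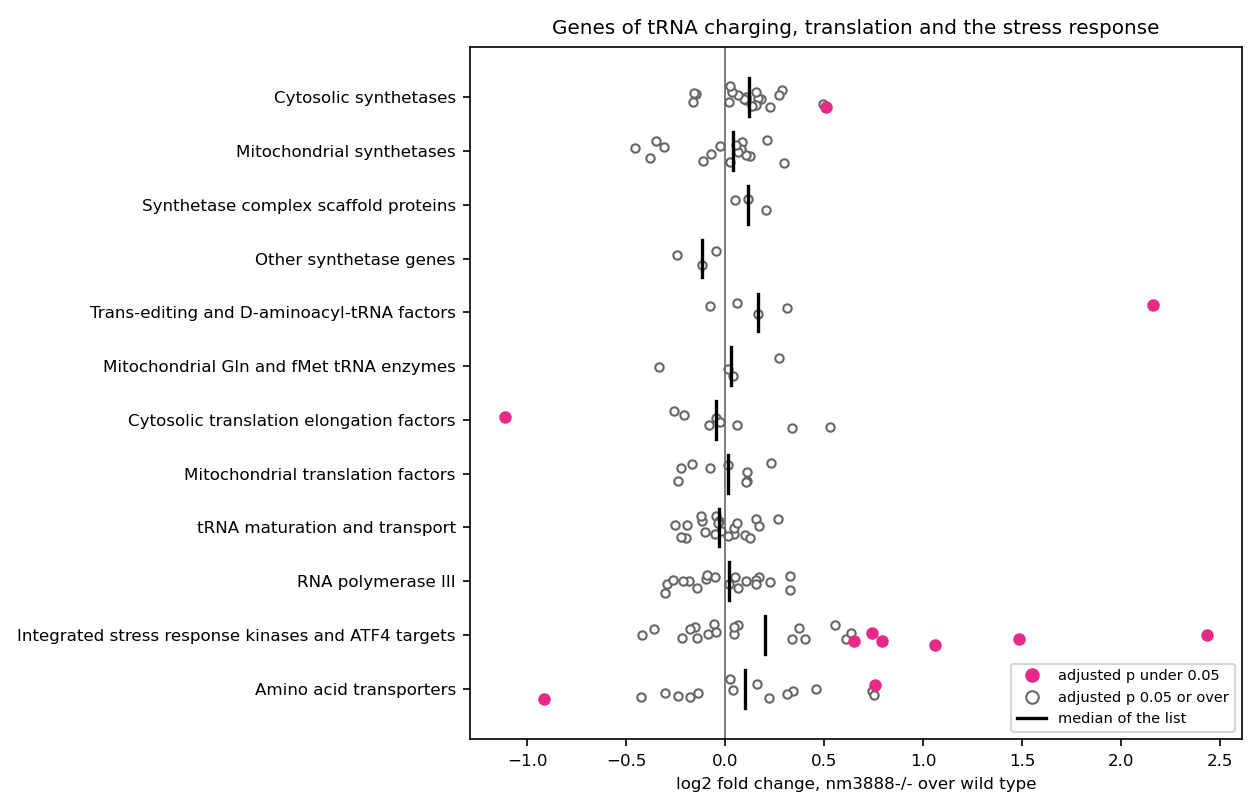
Fitted log2 fold change of nm3888-/- over wild type for single genes of each list, filled where the edgeR adjusted p was under 0.05, with the list's median as a bar. The synthetases cluster near 0 (medians 0.12 for cytosolic and 0.04 for mitochondrial genes), while 6 of 24 stress response genes and Prorsd1 lie to the right and Eif5a2 to the left. The lists were chosen with earlier results of these data known.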

How the data were processed

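Ribosome-bound polyA RNA from 4 nm3888-/- and 3 wild-type mice was sequenced, 1 library per mouse. The deposited values are counts per gene, which the authors made, per the labels and methods, by alignment to mm10 and featureCounts version 2.0.1 with GENCODE annotation, release 25, reads counted on the reverse strand. The header folders name Bowtie2 in the first library series and STAR in the second. The methods name only Bowtie2. The symbol table (GENCODE release 21) named 55141 of 55401 gene IDs, and Mars1 was matched through its older symbol Mars.

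Members and lists were chosen with earlier results of these data known. Counts were filtered by expression within genotype, scaled by TMM and fitted in edgeR 4.0.16 (R 4.3.3) with series and genotype as terms, and p-values were adjusted by Benjamini-Hochberg over 17621 genes, with a call at 0.05. CPM use TMM-scaled library sizes, and relative values use a pseudocount of 0.5 CPM. Scripts were tested on simulated counts. Named were all members, those called or up to 3 per compartment with the smallest p in every library, and the 3 highest and lowest per compartment by wild-type level. Of other lists, at most 4 called genes per direction were named, with Atf4, Ddit3, Asns and Chac1. Alternatives were DESeq2 1.42.0, RLE scaling, no filter, no series term, sex in place of series, the replicate number as a block, each series alone and each library left out.

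Same-numbered mice of the genotypes deviated together (r = 0.91, 0.95 and 0.96 for pairs 1, 2 and 3), which met the rule for pairing, although within the first series r was 0.04 and the numbers nest in the series. Library totals limit precision for the least counted members. No file of another sample was used.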

Additional observations from a re-analysis of the deposited data

How the results depend on the processing

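RLE scaling kept each of the 36 members on its side of 0 and of the threshold. The number of cytosolic synthetases called was 2 with no filter on low counts and 2 with DESeq2. It was 0 with no series term, with sex in place of series, with the replicate block and in either series alone, and between 0 and 1 with a library left out. All genes called numbered 1504 in the fit reported, 309 with no series term, 102 with sex in place of series, 812 with the replicate block, 679 in the first series alone and between 599 and 1425 with a library left out. Wild type replicate 3 gave the lowest of these. In the second series alone 567 of the genes called were higher and 493 lower, against 455 higher and 1049 lower in the fit reported. DESeq2 called 794 higher and 1256 lower. The replicate block changed no call among members other than that of Cars.

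With no series term, the median log2 fold change was 0.30 for cytosolic and 0.13 for mitochondrial genes, a difference of 0.17, and the sign turned for Gars (0.0032), Hars2 (0.0062), Rars2 (0.16) and Asns (0.078). With sex in place of series, which sets the second-series wild type beside the first series, the medians were -0.32 for cytosolic and -0.16 for mitochondrial genes, a difference of -0.16. The log2 fold changes of 23 members then turned, to -0.059 for Aars, -0.25 for Cars, -0.45 for Dars, -0.42 for Farsa, -0.55 for Farsb, -0.41 for Iars, -0.29 for Kars, -0.36 for Lars, -0.24 for Mars1, -0.046 for Nars, -0.92 for Qars, -0.35 for Rars, -0.10 for Sars, -0.28 for Tars, -0.40 for Vars, -0.27 for Aars2, -0.39 for Cars2, 0.017 for Pars2, -0.49 for Sars2, -0.32 for Tars2, -0.15 for Vars2, 0.054 for Wars2 and -0.032 for Yars2, and Ddit3 turned to 0.021. None of these was called in the fit reported except Cars.

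In the first series alone Hars2 (0.019), Ddit3 (0.16) and Asns (0.019) turned. In the second alone the mitochondrial median was -0.063, and Farsa (-0.11), Kars (-0.043), Qars (-0.057), Rars (-0.016), Aars2 (-0.023), Cars2 (-0.17) and Sars2 (-0.049) turned. With a library left out, the cytosolic minus mitochondrial median ran between 0.039 and 0.14. The signs of 11 genes near 0 turned in these fits, with ranges of -0.051 to 0.26 for Dars, -0.064 to 0.12 for Farsa, -0.014 to 0.074 for Farsb, -0.033 to 0.23 for Iars, -0.036 to 0.070 for Rars, -0.0033 to 0.056 for Aars2, -0.10 to 0.30 for Cars2, -0.017 to 0.16 for Ears2, -0.11 to 0.033 for Hars2, -0.29 to 0.16 for Ddit3 and -0.084 to 0.016 for Asns. The calls of Prorsd1 and Eif5a2 were lost only with sex in place of series (edgeR adjusted p = 0.0974 for Prorsd1 and 0.164 for Eif5a2). The cause of these changes was not tested. With 3 wild types, 1 of them in the second series, a lone wild type was taken to vary like the others.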

Other observations

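Amino acid transporters, which supply the substrates of the synthetases, gave 1 gene called higher and 1 called lower of 16 tested in edgeR. Of all genes tested, 2.58% were called higher and 5.95% lower. At an unadjusted p under 0.05, edgeR gave 4 higher and 2 lower, against 10.4% and 13.2% of all genes tested. DESeq2 called 2 higher and 1 lower, against 4.37% and 6.91% of all genes. Slc7a6, a transporter of cationic and neutral amino acids, had 5.4, 5.93, 7.78 and 6.84 CPM in nm3888-/- mice, against 11.9, 10.6 and 12.9 CPM in wild types. Every mutant was below every wild type, with a log2 fold change of -0.92 ± 0.13 (SE, edgeR adjusted p = 0.00305). That call was lost in the second series alone (edgeR adjusted p = 0.0827), with no series term (0.0816) and with sex in place of series (0.0952). Slc1a4, a transporter of alanine, serine, cysteine and threonine, had 8.75, 6.71, 10.2 and 8.96 CPM in mutants, against 5.81, 3.96 and 5.16 CPM in wild types. Its groups did not overlap either, with 0.76 ± 0.18 (SE, edgeR adjusted p = 0.0388). The Slc1a4 call held without wild type replicate 1 and was lost without any other single library (edgeR adjusted p between 0.0521 and 0.236).

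The genes that make and process tRNA gave no call in edgeR or DESeq2, nor did mitochondrial translation factors. Of 21 genes of tRNA maturation and transport, 0 were called (2 lower at an unadjusted p under 0.05), with a median log2 fold change of -0.03. Of 19 subunits and factors of RNA polymerase III, which transcribes tRNA genes, 0 were called (2 higher and 1 lower at an unadjusted p under 0.05), with a median of 0.02. Of 9 mitochondrial translation factors tested, 0 were called (2 lower at an unadjusted p under 0.05), with a median of 0.01.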
